A study of Mus musculus with 17 samples.

Results

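The expression of 10 genes that encode receptors and soluble bridges for the uptake of dying cells was followed in type 1 and type 2 conventional dendritic cells (cDC1s and cDC2s) of mouse spleen. These genes were chosen by name for their role, with earlier results of these data known. All were found, as Ensembl identifiers, among the 31091 genes of the count table. They comprise the receptor tyrosine kinases Axl, Mertk and Tyro3, the TIM receptors Timd4 and Havcr2, the scavenger receptors Cd36, Stab1 and Scarf1, and the secreted bridging proteins Mfge8 and Gas6.

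The 17 samples fell into 6 groups. CD11c+ spleen cells were cultured for 6 h with uncentrifuged medium from an equal number of TC-1 cells, a mouse lung carcinoma line, and then sorted into cDC1s (XCR1+ CD8α+ SIRPα-) and cDC2s (SIRPα+ CD11b+ XCR1-). The medium came from live TC-1 WT cells (WT), from TC-1-iBimS cells dying by apoptosis (BimS) or from TC-1-iRIPK3 cells dying by necroptosis (RIPK3). TC-1-iBimS and TC-1-iRIPK3 are clones that carry a cumate-inducible BimS or a cumate-inducible self-associating RIPK3, and the WT cells were given cumate as well. The spleens came from young adult female C57BL/6JRj mice that carried a FLT3L-secreting B16 tumor, which expands cDCs. Spleens of at least 2 mice were pooled per experiment. The uptake assay to which the RNA methods refer back had GM-CSF in the culture. There were 3 samples per group, except 2 of cDC2s with RIPK3 medium.

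Phagocytes recognise dying cells mainly by phosphatidylserine, a lipid that moves to the outer face of the membrane during cell death. TIM-4, encoded by Timd4, and TIM-3, encoded by Havcr2, bind this lipid directly. Axl, Mertk and Tyro3, the TAM kinases, bind it through the bridging protein Gas6, and αv integrins bind it through MFG-E8, encoded by Mfge8. Among dendritic cells, cDC1s are known for presenting antigen of engulfed dead cells to CD8+ T cells.

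Library totals ranged from 16095159 to 21645289 counts on genes. Levels are given as CPM, the counts of a gene per 1000000 counts of that library after its total on genes was scaled by its TMM factor (0.961 to 1.04). The sorted populations differed in their markers in the direction of their labels. The summed level of 8 cDC1 markers was 1228 to 1514 CPM in cDC1s and 95.7 to 127 CPM in cDC2s, and that of 7 cDC2 markers was 2.33 to 4.02 CPM in cDC1s and 286 to 374 CPM in cDC2s. No cDC1 marker was at 0 in all samples of a cDC1 group, and no cDC2 marker in a cDC2 group. In bulk samples, fewer cells of a type and less RNA per cell cannot be told apart.

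The 10 genes differed widely in level. Of these, 5 (Cd36, Havcr2, Timd4, Mfge8 and Axl) lay above 1 CPM in every sample, and 5 (Scarf1, Stab1, Gas6, Tyro3 and Mertk) lay below 1 CPM in every sample. Per kilobase of canonical transcript in WT medium, the mean levels in cDC1s were 377 CPM for Cd36, 228 CPM for Havcr2, 25.6 CPM for Timd4, 1.03 CPM for Mfge8 and 0.641 CPM for Axl. In cDC2s the same quantity was 231 CPM for Havcr2, 89.0 CPM for Cd36, 13.0 CPM for Timd4, 3.14 CPM for Mfge8 and 1.04 CPM for Axl. Cd36 therefore ranked above Havcr2 in cDC1s and below it in cDC2s, although in cDC1s with WT medium the order of these 2 genes turned when the merged length of all annotated exons was used instead.

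**Figure D1:**
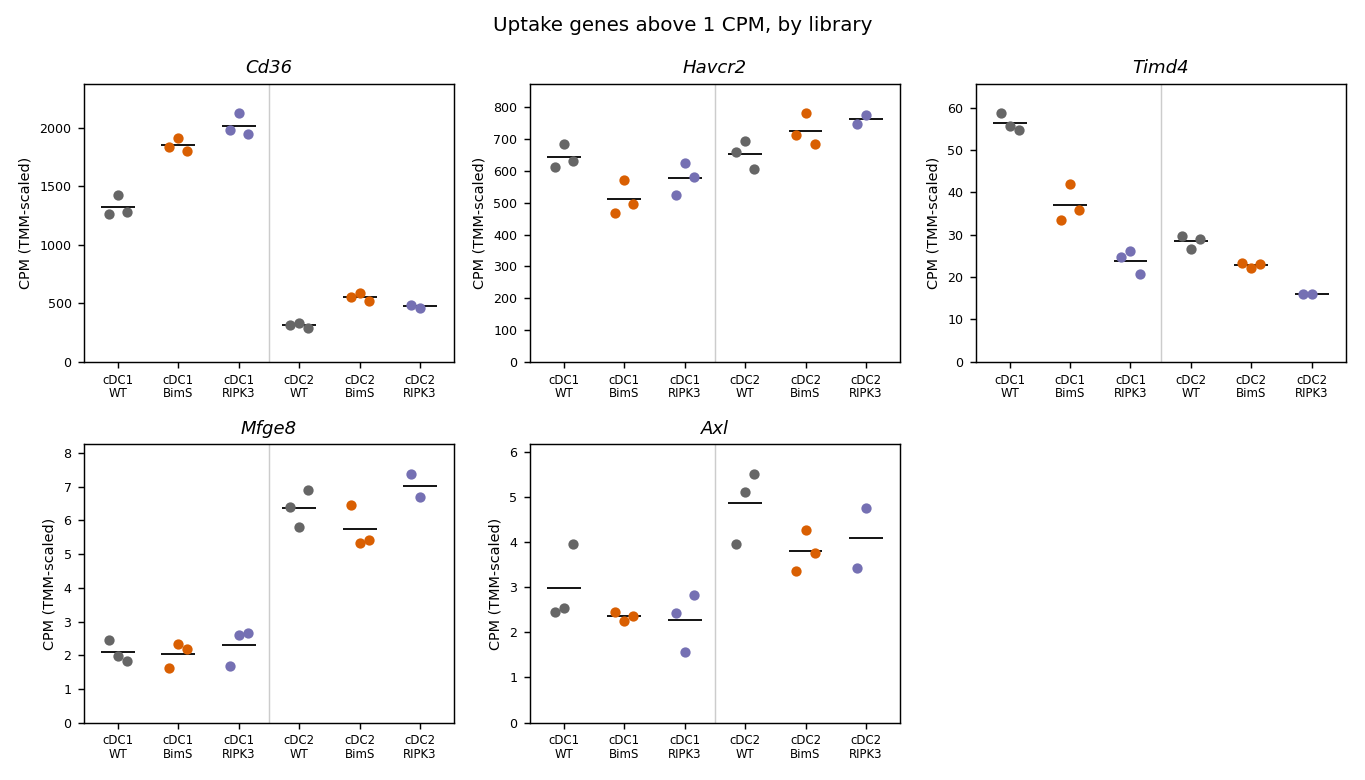
Level of the 5 uptake genes above 1 CPM (vertical axis, CPM, starting at 0) in every library of the 6 groups (horizontal axis). Points are libraries and lines are group means. Cd36 rose and Timd4 fell with both kinds of debris in both cell types, with no overlap between debris and WT libraries.

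Against WT medium, 3 of 9 tested genes were called in cDC1s with BimS medium, 1 higher and 2 lower, while 13.2% of all genes tested were called, 7.31% higher and 5.89% lower. With RIPK3 medium, 2 of 9 were called in cDC1s, 1 in each direction, against 16.5% of all genes, 8.34% higher and 8.19% lower. In cDC2s, 2 of 10 were called with BimS medium, 1 in each direction, against 7.01% of all genes, 3.80% higher and 3.21% lower. With RIPK3 medium it was again 2 of 10, 1 in each direction, against 7.21%, 3.93% higher and 3.28% lower. A gene was called at an adjusted p under 0.05 in edgeR's quasi-likelihood test. Cd36 and Timd4 made up all of these calls except 1, the fall of Havcr2 in cDC1s with BimS medium. Mertk was not tested in cDC1s, where it had counts in fewer than 50% of the samples.

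Cd36, a class B scavenger receptor that binds oxidised lipids, thrombospondin and dying cells and takes up long-chain fatty acids, rose with both kinds of debris in both cell types. It lies on chr5:17986432-18094067 (GRCm39, minus strand). In cDC1s its level was 1262, 1423 and 1278 CPM with WT medium, 1835, 1916 and 1798 CPM with BimS medium and 1985, 2123 and 1944 CPM with RIPK3 medium. The 3 groups did not overlap, and each RIPK3 library lay above each BimS library. The rise was 1.40-fold with BimS medium (log2 fold change 0.49 ± 0.048 SE, adjusted p = 7.48e-10) and 1.53-fold with RIPK3 medium (0.61 ± 0.048, adjusted p = 2.16e-12).

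In cDC2s, Cd36 was at 314, 333 and 289 CPM with WT medium, 558, 588 and 519 CPM with BimS medium and 487 and 460 CPM with RIPK3 medium. Here too the groups did not overlap, but the BimS libraries were the highest. The rise was 1.78-fold with BimS medium (0.83 ± 0.082, adjusted p = 1.09e-06) and 1.51-fold with RIPK3 medium (0.59 ± 0.090, adjusted p = 1.67e-04).

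Cd36 did not pass the test between both kinds of debris in either cell type. The log2 fold change of RIPK3 against BimS medium was 0.12 ± 0.048 in cDC1s (adjusted p = 0.162) and -0.24 ± 0.092 in cDC2s (adjusted p = 0.446). With the replicate number as a block, both passed, at 0.12 (adjusted p = 0.00978) and -0.29 (adjusted p = 3.9e-08). The block called 8.87% and 14.3% of all genes here, against 4.15% and 0.379% without it. It spends model terms on few libraries, fewest in cDC2s, which limits its estimate of the spread. Over 8 alternatives the adjusted p ran from 0.00978 to 0.916 in cDC1s and from 3.9e-08 to 0.441 in cDC2s, and the block was the one alternative to give a call in each. Without cDC1 RIPK3 replicate 3, the value in cDC1s was 0.15 (adjusted p = 0.0312).

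Across media, Cd36 was 3.89-fold higher in cDC1s than in cDC2s (log2 difference 1.96 ± 0.053, adjusted p = 1.33e-23). CD36 is also a platelet protein. Of 4 platelet and megakaryocyte markers measured, Pf4 rose in cDC1s from a mean of 0.386 CPM with WT medium to 3.81 CPM with BimS and 3.06 CPM with RIPK3 medium. Itga2b, the most abundant of them, was at 4.77, 4.03 and 4.38 CPM in the same order and was not called, so that the higher sums rest on Pf4. The summed level of the 4 markers in cDC1s was 4.48 to 6.00 CPM with WT, 7.44 to 8.18 CPM with BimS and 6.78 to 8.30 CPM with RIPK3 medium, with Treml1 at 0 in the first group and Gp9 in the other two. In cDC2s these sums were 6.00 to 17.1, 6.08 to 6.86 and 6.66 to 6.91 CPM. Their part in the rise of Cd36 was not tested. The summed level of 13 markers of TC-1 and other adherent cells was 4.58 to 6.93 CPM over all cDC1 libraries and, in cDC2s, had medians of 33.7 CPM with WT, 25.2 CPM with BimS and 24.2 CPM with RIPK3 medium. Most of the sums in cDC2s was Cdh1, with means of 32.7, 25.6 and 20.4 CPM.

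Timd4, which encodes the phosphatidylserine receptor TIM-4, fell with both kinds of debris and fell further with necroptotic than with apoptotic debris. It lies on chr11:46701620-46735177 (GRCm39, plus strand). In cDC1s its level was 58.6, 55.6 and 54.8 CPM with WT medium, 33.4, 41.9 and 35.8 CPM with BimS medium and 24.7, 26.2 and 20.7 CPM with RIPK3 medium. No library of one medium overlapped with those of another. The fall was 1.52-fold with BimS medium (log2 fold change -0.60 ± 0.078 SE, adjusted p = 1.18e-06) and 2.35-fold with RIPK3 medium (-1.23 ± 0.082, adjusted p = 1.8e-12). Timd4 was the 1 gene of the 10 called between both kinds of debris in cDC1s (4.15% of all genes were), at -0.63 ± 0.084 for RIPK3 against BimS medium (adjusted p = 1.8e-05).

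In cDC2s, Timd4 was at 29.7, 26.7 and 29.1 CPM with WT medium, 23.4, 22.2 and 23.1 CPM with BimS medium and 16.0 and 16.1 CPM with RIPK3 medium. The libraries again separated by medium, in the same order as in cDC1s. The fall with RIPK3 medium was 1.79-fold (-0.84 ± 0.11, adjusted p = 3.19e-05). That with BimS medium was 1.25-fold (-0.32 ± 0.094, adjusted p = 0.0463), and this call was lost whichever of the 8 cDC2 libraries was left out, with values of -0.36 to -0.29 and adjusted p of 0.0676 to 0.178. It was also lost with DESeq2, RLE factors, no filter and both limma fits (adjusted p of 0.0606 to 0.136).

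RIPK3 against BimS medium gave -0.52 ± 0.11 for Timd4 in cDC2s (adjusted p = 0.0446), the 1 call among the 10 genes where 0.379% of all genes were called. This call was lost without cDC2 WT replicate 2 (adjusted p = 0.0884), BimS replicate 1 (0.201), BimS replicate 2 (0.124), BimS replicate 3 (0.0851), RIPK3 replicate 1 (0.306) or RIPK3 replicate 2 (0.637), while the value stayed between -0.54 and -0.51. It was also lost with filterByExpr (0.0569) and with limma on log2 CPM (0.0534). Timd4 was 1.72-fold higher in cDC1s than in cDC2s across media (0.78 ± 0.062, adjusted p = 1.79e-12). The response to debris was not shown to differ between the cell types: the interaction was -0.29 ± 0.12 for BimS (adjusted p = 0.494) and -0.41 ± 0.14 for RIPK3 (adjusted p = 0.232).

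TIM-4 is best known from resident macrophages. All 12 macrophage markers were in the count table, and their summed level in cDC1s was 9.62 to 12.2 CPM with WT, 4.74 to 5.31 CPM with BimS and 4.75 to 7.60 CPM with RIPK3 medium. In cDC2s it was 34.0 to 40.7, 24.5 to 30.6 and 22.6 to 25.4 CPM. Against WT medium, 3 of the 11 tested in cDC1s fell with BimS medium (Mrc1, Fcgr1 and C1qc), beside 5.89% of all genes called lower. With RIPK3 medium 1 of the 11 fell there (Fcgr1), beside 8.19% of all genes. In cDC2s 2 of 12 fell with RIPK3 medium (Mrc1 and Fcgr1), beside 3.28% of all genes, and 0 with BimS medium, beside 3.21%. Fcgr1, which encodes the high-affinity IgG receptor and had the highest mean of the list in each group, was at 5.00, 2.43 and 1.15 CPM in cDC1s and at 15.2, 13.4 and 9.77 CPM in cDC2s. From BimS to RIPK3 medium in cDC1s, Fcgr1 fell, like Timd4, and was the 1 marker called, where 4.15% of all genes were. The median log2 fold change of the list was 1.19, with 11 of the 12 markers under 1 CPM in both groups. In cDC2s that median was 0.00. Cd209b was at 0 in cDC1s with WT medium, and Siglec1 and Cd209b were at 0 with BimS medium. The part of these cells in the fall of Timd4 was not tested.

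Havcr2 encodes TIM-3, a receptor for phosphatidylserine, galectin-9 and HMGB1 that is known on dendritic cells as well as on exhausted T cells. In cDC1s it was at 612, 686 and 633 CPM with WT medium, 468, 573 and 496 CPM with BimS medium and 525, 626 and 582 CPM with RIPK3 medium. The BimS libraries lay below all WT libraries, and the RIPK3 libraries overlapped with both. The fall with BimS medium was 1.26-fold (-0.33 ± 0.083, adjusted p = 0.0221). This call was lost without WT replicate 2 (-0.28, adjusted p = 0.0551), WT replicate 3 (-0.34, 0.0636), BimS replicate 3 (-0.31, 0.0896) or RIPK3 replicate 3 (-0.33, 0.13) of the cDC1s. With RIPK3 medium the value was -0.16 ± 0.083 (adjusted p = 0.278).

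In cDC2s, the level of Havcr2 was 659, 693 and 605 CPM with WT medium, 712, 781 and 686 CPM with BimS medium and 748 and 776 CPM with RIPK3 medium. The RIPK3 libraries lay above all WT libraries, whereas 1 BimS library lay below the highest WT library. Neither comparison with WT medium passed the test, at 0.15 ± 0.081 for BimS (adjusted p = 0.338) and 0.21 ± 0.090 for RIPK3 (adjusted p = 0.196).

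In every group of Havcr2, replicate 2 was the highest library and same-numbered samples moved together. With the replicate block, 4 further comparisons passed: RIPK3 against WT medium in cDC1s (-0.16, adjusted p = 4.93e-04), RIPK3 against BimS medium in cDC1s (0.17, 3.54e-04), BimS against WT medium in cDC2s (0.15, 7.12e-04) and RIPK3 against WT medium in cDC2s (0.17, 0.00214). Under the block, 21.0%, 8.87%, 21.3% and 21.4% of all genes were called in these comparisons. Over 8 alternatives, the largest adjusted p of these comparisons were 0.272, 0.782, 0.834 and 0.92 in the same order. Without a filter, RIPK3 against WT medium (adjusted p = 0.00947) and RIPK3 against BimS medium (0.0104) also passed in cDC1s, the first also with limma without normalization (-0.28, 0.0369). Leaving out cDC1 BimS replicate 2 brought RIPK3 against WT medium (-0.16, adjusted p = 0.0455) and RIPK3 against BimS medium (0.26, 0.00946) past the threshold in cDC1s.

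Havcr2 was the 1 gene of the 10 whose response to BimS medium differed between the cell types, by -0.48 ± 0.11 on the log2 scale (adjusted p = 0.021), where 0.870% of all genes did. The call was lost without cDC1 WT replicate 2 (-0.44, adjusted p = 0.0857), cDC1 BimS replicate 1 (-0.43, 0.0919), cDC1 BimS replicate 3 (-0.46, 0.0782) or cDC2 BimS replicate 2 (-0.44, 0.0781). It was also lost with limma without normalization (-0.45, 0.483). For RIPK3 medium the difference was -0.38 ± 0.11 (adjusted p = 0.131) and passed under the block (-0.36, 0.0046) and without a filter (-0.36, 0.0211), the alternatives reaching up to 0.832. With the filter and without the block, edgeR called none of the 10 genes in the interaction with RIPK3 against WT medium, where 1.14% of all genes were, and 2 had an unadjusted p under 0.05. DESeq2 and limma called none either. Under the block, 2.32% of all genes were called in the interaction with BimS and 2.35% in that with RIPK3 against WT medium.

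The interaction of Cd36 with BimS medium was -0.35 ± 0.093 (adjusted p = 0.0846) and passed under the block (-0.34, adjusted p = 0.00191), with DESeq2 (-0.36, 0.0182), without a filter (-0.35, 0.0162) and without cDC2 BimS replicate 3 (-0.40, 0.035), the alternatives reaching up to 0.867. That for RIPK3 medium was 0.01 ± 0.099 (adjusted p = 0.996), a value that changed sign among the alternatives. Between RIPK3 and BimS medium, edgeR, DESeq2 and limma called no interaction among the 10 genes, where 0.0314% of all genes were called (0.141% under the block), and 1 gene, Cd36, had an unadjusted p under 0.05 (0.35 ± 0.099, adjusted p = 0.487, and 0.38 with an adjusted p of 0.0137 under the block, the alternatives reaching up to 1).

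**Figure D2:**
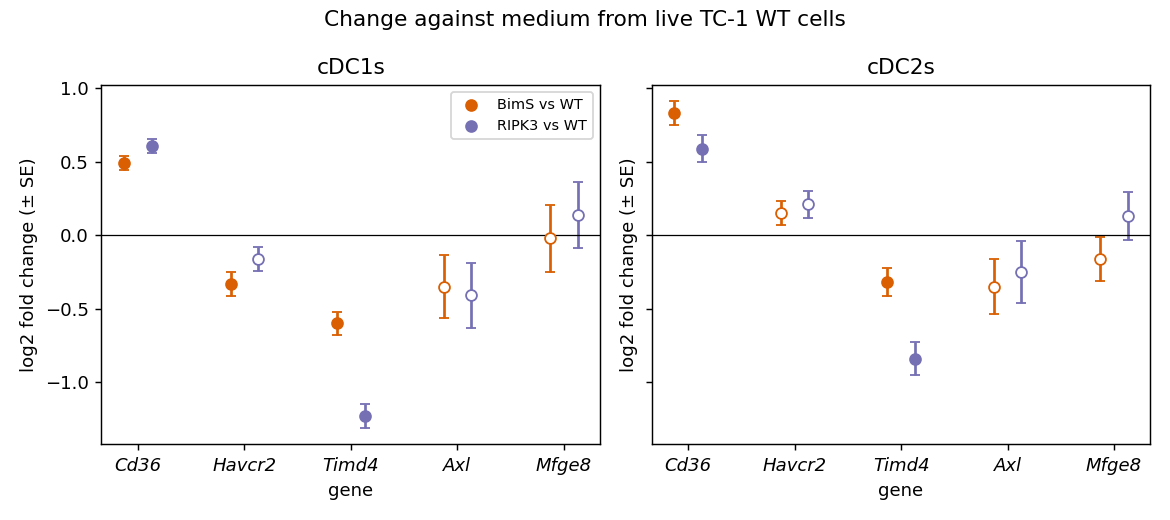
Log2 fold change (vertical axis, ± SE from edgeR) of the 5 uptake genes above 1 CPM (horizontal axis) with BimS or RIPK3 medium against WT medium in cDC1s (left) and cDC2s (right). Filled points passed an adjusted p of 0.05 and open points did not: Cd36 lies above 0 and Timd4 below 0 with both kinds of debris in both cell types, and Havcr2 lies below 0 in cDC1s and above 0 in cDC2s.

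Between the cell types across media, 6 of the 10 genes were called, where 59.8% of all genes were. Cd36 and Timd4 were higher in cDC1s, and Axl, Tyro3, Havcr2 and Mfge8 were higher in cDC2s. Havcr2 was 1.23-fold higher in cDC2s (log2 difference of cDC1s minus cDC2s -0.30 ± 0.069, adjusted p = 7.49e-04), but in WT medium alone the difference was -0.02 (adjusted p = 0.864, the alternatives going down to 3.38e-09), and limma without normalization gave -0.11 (adjusted p = 0.224) across media.

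Mfge8, whose protein MFG-E8 tethers phosphatidylserine to αv integrins, lies on chr7:78783515-78798825 (GRCm39, minus strand) and shares exonic sequence with the lncRNA gene Gm73905 of the opposite strand. Its levels ran from 1.63 to 2.65 CPM in the 9 cDC1 libraries and from 5.34 to 7.37 CPM in the 8 cDC2 libraries. The cell types did not overlap, and cDC2s were 2.96-fold higher (cDC1s minus cDC2s -1.56 ± 0.11, adjusted p = 3.77e-14). Debris made no call in either cell type: with BimS and RIPK3 medium the log2 fold changes were -0.02 ± 0.23 and 0.14 ± 0.23 in cDC1s and -0.16 ± 0.15 and 0.13 ± 0.16 in cDC2s (adjusted p from 0.662 to 0.983).

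Axl, a TAM kinase that needs Gas6 as its bridge and restrains inflammatory signalling in dendritic cells, lies on chr7:25456535-25488329 (GRCm39, minus strand). In cDC1s its level was 2.44, 2.54 and 3.95 CPM with WT medium, 2.44, 2.24 and 2.37 CPM with BimS medium and 2.43, 1.56 and 2.82 CPM with RIPK3 medium. In cDC2s the levels were 3.95, 5.11 and 5.50 CPM, 3.35, 4.27 and 3.76 CPM, and 3.43 and 4.75 CPM in the same order of media. The media overlapped in both cell types. No comparison with WT medium passed the test, with log2 fold changes of -0.41 to -0.25 and adjusted p of 0.233 to 0.608, whereas Axl was 1.67-fold higher in cDC2s than in cDC1s (-0.74 ± 0.13, adjusted p = 5.94e-06).

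The other TAM kinases and their bridge were near the limit of detection. Tyro3 had 0 to 3 counts per library in cDC1s and 1 to 6 in cDC2s, 11 against 27 counts in all. This gave a ratio of 3.13 (95% exact interval 1.50 to 6.99, for counting error only) in favour of cDC2s, and edgeR called the difference (-1.57 ± 0.52, adjusted p = 0.00976). In WT medium alone, it was not called (-1.09, adjusted p = 0.365, the alternatives going down to 0.00562). Tyro3 did not pass in any comparison between media.

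Mertk, the TAM kinase best known for engulfment by macrophages, had 15 counts over the 9 cDC1 libraries, of which 9 were in WT replicate 3 alone. The 3 cDC1 libraries with BimS medium had 0 counts, which allows a level of up to 0.0496 CPM over the group. In cDC2s there were 0 to 5 counts per library and 13 in all, and no comparison in which Mertk was tested passed. Mertk exons overlap with the lncRNA gene Gm39931.

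Gas6, the bridge of all 3 TAM kinases, had 1, 1 and 0 counts in cDC2s with WT medium, 1, 1 and 1 with BimS medium and 4 and 3 with RIPK3 medium. The RIPK3 libraries lay above the others, at a ratio of 5.97 to WT medium (95% exact interval 1.14 to 58.9, for counting error only). The difference did not pass edgeR's test (adjusted p = 0.234). Gas6 is among the genes that the study picked from these samples as higher in cDC2s with RIPK3 medium, so that this direction is not independent evidence. In cDC1s, Gas6 had 1 to 6 counts per library with the media overlapping, and cDC1s and cDC2s did not differ by the test (28 against 12 counts, adjusted p = 0.187). Its exons overlap with those of Tmem255b.

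Scarf1 and Stab1 are scavenger receptors of endothelium and some macrophages, of which SCARF1 binds C1q on dying cells and stabilin-1 binds phosphatidylserine. Scarf1 had 6 to 11 counts per library in cDC1s and 2 to 11 in cDC2s, 81 against 42 in all (ratio 1.51, 95% exact interval 1.03 to 2.25, for counting error only), and edgeR did not call this difference (adjusted p = 0.0764). Stab1 had 3 to 12 counts per library in cDC1s and 5 to 12 in cDC2s, where the RIPK3 libraries, with 12 and 8 counts, lay above the 6 others, with 5 to 7 (adjusted p = 0.478 against WT medium). Neither gene passed in any comparison, and the exons of Stab1 overlap with those of Nt5dc2, Gm62616 and Gm52148. The endothelial markers of the same libraries, 7 in all, summed to 10.2 to 20.2 CPM in cDC1s and 15.3 to 25.6 CPM in cDC2s. Most of it was Pecam1, with group means of 10.6 to 18.2 CPM in cDC1s and 14.9 to 21.4 CPM in cDC2s.

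**Figure D3:**
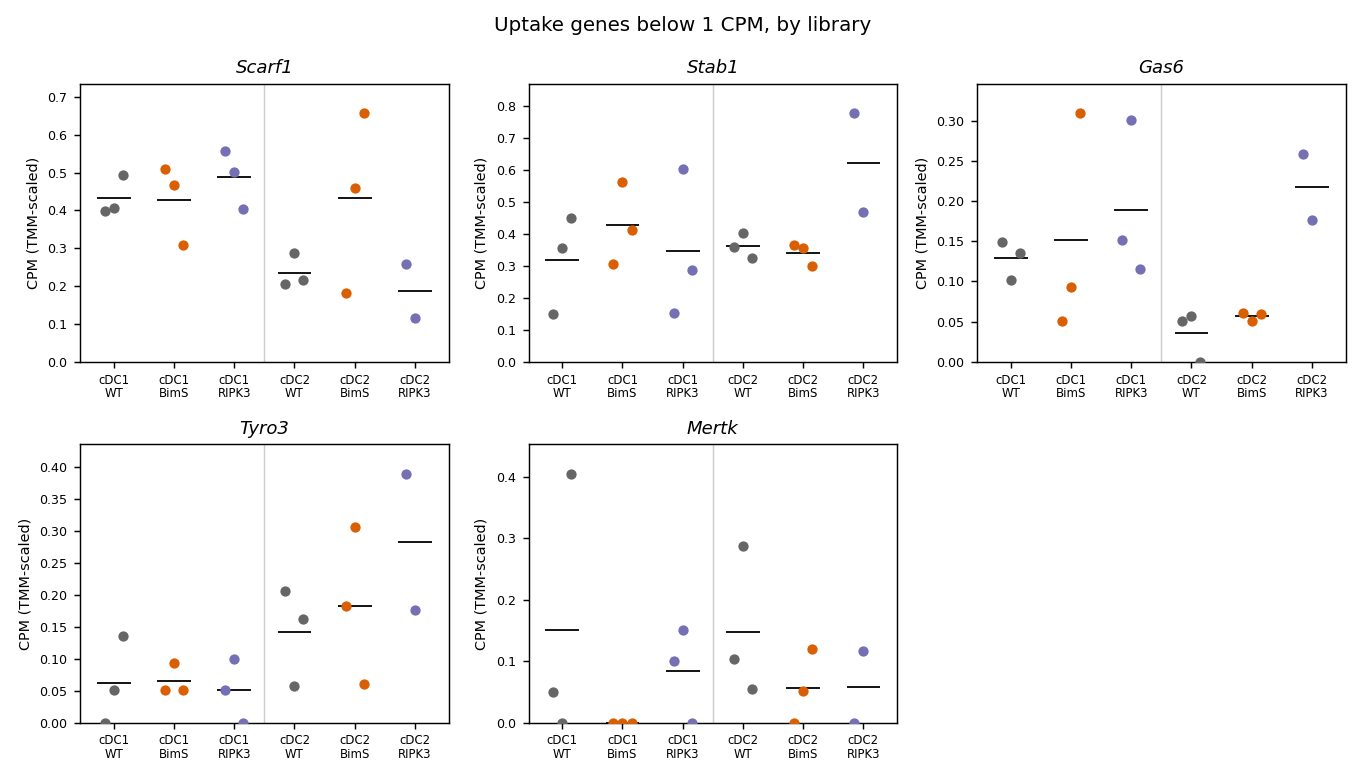
Level of the 5 uptake genes below 1 CPM (vertical axis, CPM, starting at 0) in every library of the 6 groups (horizontal axis). Points are libraries and lines are group means. Libraries of the different media overlap, except that those of cDC2s with RIPK3 medium lie above the other cDC2 libraries for Gas6 and Stab1, and 1 library holds 9 of the 10 Mertk counts of the cDC1s with WT medium.

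The TIM genes lie together on chromosome 11, and 4 of them were measured. Havcr2 is at chr11:46345673-46374149, Timd2 at chr11:46559787-46597939, Havcr1 at chr11:46625907-46670405 and Timd4 at chr11:46701620-46735177 (GRCm39). Havcr1, which encodes the phosphatidylserine receptor TIM-1, fell with Timd4 in cDC1s, from 15.4 CPM ± 1.73 (SD, n = 3) with WT medium to 9.09 ± 0.995 with BimS and 6.66 ± 1.17 with RIPK3 medium. In edgeR its log2 fold changes were -0.76 ± 0.12 SE (adjusted p = 4.73e-06) and -1.20 ± 0.12 (adjusted p = 8.31e-10). RIPK3 against BimS medium gave -0.44 ± 0.13 (adjusted p = 0.0414). How this last call fares when single libraries are left out was not examined.

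In cDC2s, Havcr1 was 3.84-fold higher than in cDC1s (cDC1s minus cDC2s -1.94 ± 0.13, adjusted p = 9.75e-10), the opposite order to that of Timd4. Its means there were 48.5, 39.1 and 30.3 CPM with WT, BimS and RIPK3 medium, and the changes by -0.32 ± 0.20 (adjusted p = 0.486) and -0.69 ± 0.23 (adjusted p = 0.142) against WT medium were not called. Under the replicate block both passed (adjusted p = 4.45e-06 and 5.36e-18). Timd2 had 0 to 8 counts per library and was not called in any comparison between media.

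**Figure D4:**
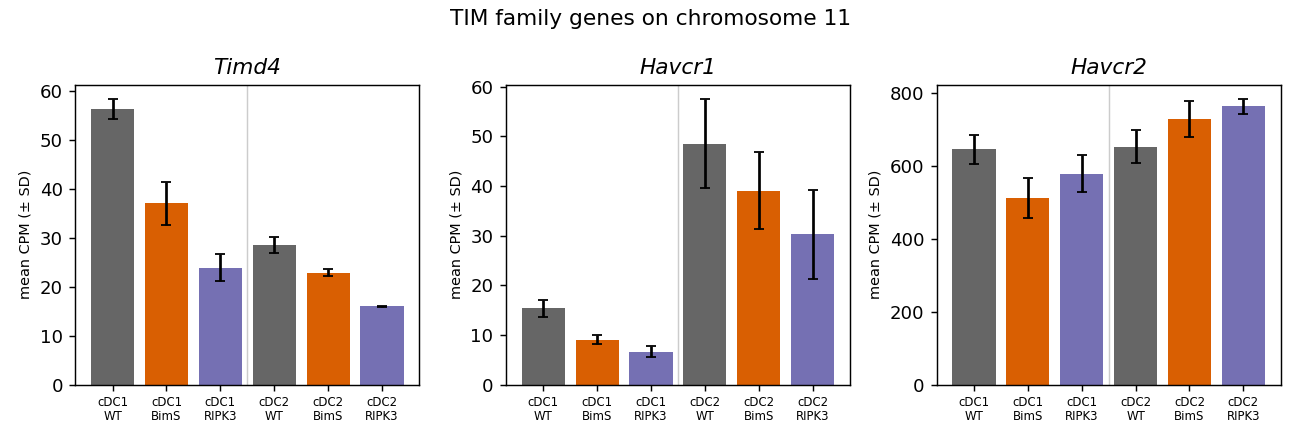
Mean level (vertical axis, CPM, from 0) of 3 TIM family genes in the 6 groups (horizontal axis). Bars are means of 3 libraries (2 for cDC2 RIPK3) and error bars are ± SD. Timd4 and Havcr1 step down from WT over BimS to RIPK3 medium in both cell types (for Havcr1 in cDC2s not past the test), while Havcr2 is lowest in cDC1s with BimS medium and highest in cDC2s with RIPK3 medium.

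Of 19 further receptors for dying cells, 16 were tested in cDC1s, where 5 rose and 2 fell with BimS medium and 4 rose and 3 fell with RIPK3 medium, beside 13.2% and 16.5% of all genes called in either direction. In cDC2s, 2 of 18 rose and 1 fell with BimS medium, and 2 rose and 2 fell with RIPK3 medium, beside 7.01% and 7.21% of all genes. Under the block these became 7 and 4, and 5 and 3, beside 21.3% and 21.4% of all genes. The medians of their log2 fold changes, from -0.13 to 0.13, lay beside those of all genes tested, from -0.02 to 0.00. Cd300a, an inhibitory receptor for phosphatidylserine and phosphatidylethanolamine, rose in cDC1s from 38.9 CPM with WT medium to 74.6 CPM with BimS (0.94 ± 0.059, adjusted p = 5.15e-15) and 67.7 CPM with RIPK3 medium (0.80 ± 0.059, adjusted p = 3.77e-13). In cDC2s it was at 123, 138 and 151 CPM, with no call (adjusted p = 0.378 and 0.103), though both passed under the block (0.00307 and 4.34e-08).

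Clec9a, the receptor by which cDC1s sense the actin of dead cells, rose in cDC1s from 241 CPM ± 11.5 (SD, n = 3) with WT medium to 288 ± 9.07 with BimS (0.26 ± 0.049 SE, adjusted p = 1.69e-04) and 285 ± 9.70 with RIPK3 medium (0.24 ± 0.049, adjusted p = 3.02e-04). In cDC2s its means were 4.91, 6.30 and 6.63 CPM, with both RIPK3 libraries above all WT libraries, and neither comparison was called (0.36 ± 0.16, adjusted p = 0.229, and 0.42 ± 0.18, adjusted p = 0.196). Scarb1, the class B scavenger receptor related to Cd36, rose in cDC1s with RIPK3 medium (39.6 to 51.1 CPM, 0.36 ± 0.063, adjusted p = 2.91e-05) and with BimS medium (to 45.9 CPM, 0.21 ± 0.063, adjusted p = 0.0185). The call with BimS medium was lost without cDC1 WT replicate 1 (0.22, 0.0557), 2 (0.21, 0.0617) or 3 (0.21, 0.0635) or BimS replicate 1 (0.16, 0.158).

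In cDC2s, the lipopolysaccharide coreceptor Cd14 rose from 33.7 to 61.8 CPM with RIPK3 medium (0.87 ± 0.13, adjusted p = 2.27e-04) and to 46.5 CPM with BimS medium (0.46 ± 0.12, adjusted p = 0.0233). The latter call was lost without cDC2 WT replicate 1 (0.39, 0.0725) or 3 (0.47, 0.0766) or BimS replicate 2 (0.47, 0.0801) or 3 (0.35, 0.112). Lrp1, a large endocytic receptor that binds calreticulin on dying cells, rose there with BimS (245 to 327 CPM, 0.42 ± 0.092, adjusted p = 0.00672) and RIPK3 medium (to 340 CPM, 0.46 ± 0.10, adjusted p = 0.00615), calls that were lost without cDC2 BimS replicate 2 (0.37, 0.0636) and cDC2 RIPK3 replicate 2 (0.37, 0.205), respectively. In cDC1s Lrp1 fell with BimS medium (77.5 to 65.1 CPM, -0.25 ± 0.063, adjusted p = 0.00452). Olr1, the oxidised LDL receptor LOX-1, was lower in cDC2s with RIPK3 medium (48.9 to 32.1 CPM, -0.62 ± 0.17, adjusted p = 0.0417), but not without cDC2 WT replicate 2 (adjusted p = 0.0939), BimS replicate 2 (0.0813), RIPK3 replicate 1 (0.111) or RIPK3 replicate 2 (0.357).

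Of 8 further bridges tested in each cell type, 2 rose and 1 fell with BimS medium in cDC1s and 1 rose with RIPK3 medium (13.2% and 16.5% of all genes were called), which became 3 and 4, and 3 and 0, under the block (17.9% and 21.0%). In cDC2s 1 rose with BimS medium, and 1 rose and 1 fell with RIPK3 medium (7.01% and 7.21% of all genes). Under the block it was 3 and 0, and 3 and 1 (21.3% and 21.4%). Thbs1, whose product thrombospondin-1 bridges dying cells to CD36 and αv integrins, rose in cDC2s from 49.2 CPM with WT medium to 144 CPM with BimS (1.55 ± 0.094, adjusted p = 1.86e-09) and 138 CPM with RIPK3 medium (1.48 ± 0.10, adjusted p = 9.01e-09). In cDC1s Thbs1 was at 2.40, 4.19 and 4.11 CPM, with adjusted p of 0.0665 and 0.0701, and passed under the block (2.38e-04 and 3.18e-04). Lgals3, which encodes the Mertk ligand galectin-3, rose in cDC1s with BimS medium (809 to 1063 CPM, 0.39 ± 0.050, adjusted p = 2.16e-07) and was lower with RIPK3 than with BimS medium (-0.30 ± 0.050, adjusted p = 2.49e-04). With RIPK3 against WT medium it was not called (0.10 ± 0.050, adjusted p = 0.211, and 0.0436 under the block). Calr, which encodes calreticulin, rose in cDC1s from 1279 to 1417 CPM with either medium (0.15 ± 0.042 each, adjusted p = 0.012 with BimS and 0.0104 with RIPK3 medium). Both calls were lost without cDC1 WT replicate 3 (0.14, 0.0676 and 0.0593), and that with BimS medium also without BimS replicate 2 (0.14, 0.0535).

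Engulfment receptors signal to the actin cytoskeleton through small GTPases such as Rac and their exchange factors. Of 15 such genes tested in cDC1s, 3 rose with BimS medium, where 13.2% of all genes were called (5 rose and 1 fell under the block, where 17.9% were), and 5 rose and 3 fell with RIPK3 medium, where 16.5% were. In cDC2s 1 of 14 rose and 2 fell with BimS medium, beside 7.01% of all genes (5 and 2 under the block, beside 21.3%). With RIPK3 medium, edgeR called none in cDC2s fitted apart with the filter and without the block, beside 7.21% of all genes. In that fit 7 had an unadjusted p under 0.05. Under the block 6 rose and 4 fell, beside 21.4%. Syk, the kinase of ITAM-coupled receptors, fell in cDC1s with RIPK3 medium (89.9 to 67.4 CPM, -0.41 ± 0.059, adjusted p = 1.14e-06), and was at 87.3 CPM with BimS medium. Rhog, a GTPase upstream of Rac, rose in cDC1s with RIPK3 medium (173 to 220 CPM, 0.35 ± 0.050, adjusted p = 1.24e-06), as did the focal adhesion kinase gene Ptk2 (24.5 to 31.9 CPM, 0.38 ± 0.085, adjusted p = 0.00107). Both also rose there with BimS medium, Rhog to 198 CPM (0.20 ± 0.050, adjusted p = 0.00423, lost at 0.0508 without BimS replicate 1) and Ptk2 to 31.0 CPM (0.34 ± 0.084, adjusted p = 0.00463, lost at 0.0637 without WT replicate 1). In cDC2s with BimS medium, the exchange factor Vav1 fell from 57.8 to 40.6 CPM (-0.51 ± 0.11, adjusted p = 0.00637), a call lost without cDC2 WT replicate 2 (-0.44, 0.0698) or cDC2 BimS replicate 1 (-0.42, 0.0594). The GTPase gene Rac2 also fell (53.3 to 39.2 CPM, -0.44 ± 0.11, adjusted p = 0.0144), a call lost without the same libraries (-0.43, 0.0801, and -0.35, 0.112). Vav3, another exchange factor, rose (92.9 to 127 CPM, 0.45 ± 0.12, adjusted p = 0.037), a call lost without WT replicate 2 or 3, BimS replicate 1 or 2 or RIPK3 replicate 2 of the cDC2s (0.31 to 0.51, adjusted p of 0.0552 to 0.184). With RIPK3 medium in cDC2s, Vav1 (-0.28, adjusted p = 4.33e-04), Rac2 (-0.22, 0.00918) and Vav3 (0.26, 4.16e-05) passed under the block. Vav3 also passed there in edgeR without a filter (0.38, 0.00402) and with all samples in 1 fit (0.38, 0.0272). Limma without normalization called Vav1 (-0.49, 0.0287) and Rac2 (-0.46, 0.0484). Without cDC2 WT replicate 1, Rac2 passed with RIPK3 medium (-0.40, 0.0375).

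Among 4 genes of inhibitory signals, Cd47, the "do not eat me" ligand, fell in cDC1s with BimS (198 to 154 CPM, -0.36 ± 0.052, adjusted p = 2.08e-06) and RIPK3 medium (to 171 CPM, -0.21 ± 0.052, adjusted p = 0.00271). It was the 1 gene of this list called in cDC1s with either medium, where the block called 1 rise and 1 fall with BimS and 2 rises and 1 fall with RIPK3 medium (13.2% and 16.5% of all genes were called, and 17.9% and 21.0% under the block). In cDC2s edgeR called 0 of the 4 with either medium, beside 7.01% of all genes with BimS and 7.21% with RIPK3 medium. Cd47 was at 278 to 299 CPM there. An unadjusted p under 0.05 was reached by 1 gene with BimS and 0 with RIPK3 medium. The block called 2 falls with BimS medium, beside 21.3% of all genes.

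Of 12 regulators and partners of these receptors, 4 rose and 1 fell with BimS medium in cDC1s, and 4 rose and 1 fell with RIPK3 medium, beside 13.2% and 16.5% of all genes. In cDC2s 3 rose and 1 fell with BimS medium, and 2 rose and 1 fell with RIPK3 medium, beside 7.01% and 7.21% of all genes. Under the block these were 5 and 1, and 4 and 1, beside 21.3% and 21.4%. Ppard, a lipid-activated nuclear receptor known to regulate uptake receptors in macrophages, rose in cDC1s from 84.9 CPM with WT medium to 115 CPM with BimS (0.44 ± 0.052, adjusted p = 3.42e-08) and 150 CPM with RIPK3 medium (0.82 ± 0.051, adjusted p = 4.03e-15). It rose in cDC2s from 136 CPM to 193 CPM (0.51 ± 0.077, adjusted p = 1.75e-04) and 240 CPM (0.81 ± 0.085, adjusted p = 1.8e-06). Its partner Rxra rose with BimS medium in cDC1s (18.8 to 26.2 CPM, 0.48 ± 0.078, adjusted p = 1.41e-05) and in cDC2s (22.5 to 32.7 CPM, 0.54 ± 0.10, adjusted p = 0.00206). With RIPK3 medium it rose by 0.45 ± 0.078 in cDC1s (adjusted p = 3.03e-05) and by 0.45 ± 0.12 in cDC2s (adjusted p = 0.0185), the latter lost without WT replicate 1 or 2 or either RIPK3 replicate of the cDC2s (0.36 to 0.51, adjusted p of 0.0586 to 0.213). Socs1, a cytokine signalling inhibitor induced downstream of TAM kinases, rose in cDC1s with RIPK3 medium (37.0 to 48.9 CPM, 0.40 ± 0.069, adjusted p = 3.09e-05) and with BimS medium (to 45.2 CPM, 0.29 ± 0.069, adjusted p = 0.00272). Ceacam1, which encodes a binding partner of TIM-3, was lower in cDC2s with RIPK3 medium (10.4 to 6.81 CPM, -0.63 ± 0.19, adjusted p = 0.0417), but not without WT replicate 1 or 2 or either RIPK3 replicate of the cDC2s (-0.84 to -0.44, adjusted p of 0.0791 to 0.467).

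As a description of likeness, each of the 3 genes above 10 CPM was compared with 7783 genes over the 17 samples by Pearson correlation of log2 CPM; these samples share cell type, medium and replicate differences. The genes most like Timd4 were Dock8 (r = 0.934), Nedd4l (0.927) and Ptger4 (0.926). Among those most like Cd36 were Nck2 (0.995) and Lpar6 (0.993), and those most like Havcr2 were Antxr2 (0.925), Gm49336 (0.895) and Maml3 (0.887).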

How the data were processed

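Polyadenylated RNA of the sorted cells was sequenced as paired-end reads. The deposited counts per gene had been made by the authors with SeqPurge trimming, STAR 2.7.10a alignment to GRCm39 with Ensembl models and gensum, without normalization. Whether counting used strand is not given in the sources used here, so that reads of overlapping genes on opposite strands may not be told apart. The deposited normalized table was not used. Lines without a gene identifier (0.0258 to 0.0366% of counts) were left out, and symbols came from GENCODE M39.

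Genes detected in 50% or more of the samples fitted were tested with edgeR 4.0.16 (TMM, robust quasi-likelihood test, Benjamini-Hochberg adjustment over all 19513 genes in cDC1s, 19239 in cDC2s and 19082 in fits over both). cDC1s (9 samples) and cDC2s (8) were fitted apart, and cell type and interaction effects over all 17. Both cell types were sorted from the CD11c+ cultures, and the fits over all 17 took their samples as independent unless blocked by replicate number. CPM are counts per 1000000 counts of the TMM-scaled library total. P-values measure the spread between these samples; pooled spleens were the source. Same-numbered samples deviated together within a cell type (all 9 cDC1 and all 7 cDC2 pairs had a correlation over 0.1, median 0.312 and 0.427). Values with the number as a block are therefore given where they change the call of a value given. They are also given where they move a count of calls by over 1.5 times. The block leaves little for estimating the spread, above all in cDC2s. Its adjusted p for Cd36 with BimS medium there was 3.04e-90, against 1.09e-06 without it. Small adjusted p under the block are therefore not to be read as stronger evidence. Alternatives were DESeq2 1.42.0, limma 3.58.1 on log2(count + 1) without normalization (the study's transformation and model, but with calls by adjusted p and no fold threshold) and on log2 CPM, RLE factors, other filters and leaving out each sample. A check on simulated counts recovered changed genes, but it used large changes in well-counted genes and no link between same-numbered samples. It does not speak to small changes or to genes at few counts. In each further gene list, the up to 3 called genes with the largest change against WT medium per cell type, with a mean log2 CPM of 3 or more, were candidates for naming, with Clec9a. The genes and lists were chosen with earlier results of these data known. Mbl2, Gp1bb and Krt19 were not analysed here. A gene among those most like Cd36 is not reported here.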

Additional observations from a re-analysis of the deposited data

Results flagged for a closer look

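The responses of 6 genes of the 10 and the further lists differed between cDC1s and cDC2s by edgeR's interaction test with BimS or RIPK3 against WT medium, where 0.870% and 1.14% of all genes did; each value is the log2 fold change in cDC1s minus that in cDC2s. For BimS against WT medium the difference was -0.48 for Havcr2 (adjusted p = 0.021), 0.78 for Cd300a (adjusted p = 5.6e-05), -0.67 for Lrp1 (adjusted p = 0.00132), 0.56 for Vav1 (adjusted p = 0.0291) and 0.42 for Socs3 (adjusted p = 0.0254). For RIPK3 against WT medium it was 0.50 for Cd300a (adjusted p = 0.017), -0.65 for Lrp1 (adjusted p = 0.00269) and -0.61 for Syk (adjusted p = 0.00454). Without the block, Cd300a rose in cDC1s alone by the test, and under the block it also passed in cDC2s. Lrp1 fell in cDC1s and rose in cDC2s with BimS medium. Syk fell in cDC1s with RIPK3 medium, and Vav1 fell in cDC2s with BimS medium. Groups held 3 samples, or 2, and their libraries were not tested as outliers.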

How the results depend on the processing

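Calls for Cd36 and Timd4 against WT medium held under every alternative run, leave-one-out included, except that of Timd4 with BimS medium in cDC2s. The number of the 10 genes called changed by over 1.5 times as follows. RIPK3 against BimS medium in cDC1s gave 2 without a filter and 3 with the replicate block (1 to 2 in leave-one-out), where 3.63%, 8.87% and 2.42 to 5.09% of all genes were called. BimS against WT medium in cDC2s gave 1 with DESeq2, RLE factors, no filter and both limma fits (1 in every leave-one-out), beside 5.50 to 7.00% of all genes (4.20 to 8.09%). RIPK3 against BimS medium in cDC2s gave 0 with filterByExpr and limma on log2 CPM and 2 with the block (0 to 1 in leave-one-out), beside 0.354%, 0.312% and 14.3% (0 to 1.15%). The interaction with BimS medium gave 2 with DESeq2, no filter and the block and 0 with limma without normalization (0 to 2 in leave-one-out), beside 1.37%, 1.01%, 2.32% and 0.351% (0.479 to 1.20%). That with RIPK3 against WT medium gave 1 without a filter (1.19%) and with the block (2.35%), and that with RIPK3 against BimS medium gave 1 with the block (0.141%). The cause was not tested. Of the 10 genes, the block changed calls of Havcr2 and Cd36 alone, adding those given above, in the comparisons of media, of cell types across media and of interactions.

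Limma without normalization brought the median log2 fold change of genes over 10 counts to between -0.19 and 0.19 (-0.03 to 0.02 in edgeR), and turned uncalled values to -0.02 for Axl and -0.04 for Havcr2 (RIPK3 against BimS medium, cDC2s), -0.04 for Mfge8 (RIPK3 against WT medium, cDC2s) and -0.02 for Lgals3 (RIPK3 against WT medium, cDC1s). DESeq2 and RLE factors turned the interaction of Cd36 with RIPK3 medium to -0.00 and, like no filter, Olr1 with BimS medium in cDC2s to 0.00. Leave-one-out, run on Axl, Timd4, Havcr2, Cd36, Mfge8 and the cell type difference of Tyro3, gave 9 turned values, each uncalled: Axl for RIPK3 against BimS medium (0.15 to -0.24 in cDC1s, -0.16 to 0.31 in cDC2s), Mfge8 with BimS medium in cDC1s (-0.14 to 0.11) and Cd36 in the RIPK3 interaction (-0.04 to 0.06). Olr1 and Ceacam1 with BimS medium in cDC2s ran from -0.17 to 0.16 and from -0.03 to 0.27. Among the further genes named, Calr, Scarb1, Ptk2, Rhog, Vav3, Lrp1, Socs1, Cd14 and Rxra each lost at least 1 call with limma without normalization, Cd14 with RIPK3 medium in cDC2s lost its call when all samples shared 1 fit (adjusted p = 0.0606), as did Cd14, Scarb1, Rhog and Calr with BimS medium (0.304, 0.138, 0.104 and 0.15) and Calr with RIPK3 medium (0.13). Olr1 with RIPK3 medium lost its call with RLE factors (adjusted p = 0.0516), and Ceacam1 with RLE factors, filterByExpr and limma on log2 CPM (0.0506 to 0.0665). Depth limits Mertk, Tyro3, Gas6, Stab1 and Scarf1, each at 12 counts or fewer per library.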
